A study of Sus scrofa with 30 samples.

Results

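The miR-34 and miR-449 families were followed in the porcine endometrium, the inner lining of the uterus, as 14 small RNA sequences out of the table that the study annotated as mature miRNAs or isomiRs, which held 859 others. A sequence was included when its name had the root mir-34a, mir-34b, mir-34c, mir-449a, mir-449b or mir-449c. Of the 14 sequences, 11 came from mir-34c (9 of the 5′ arm and 2 of the 3′ arm), 1 from mir-34a with 541 reads over all libraries and 2 from mir-449a with 739, and 0 carried a name of miR-34b, miR-449b or miR-449c. Small RNA was sequenced in 30 libraries, 1 per animal, from Hampshire x Duroc gilts aged 7 to 8 months of a single herd. Endometrium was taken on day 12, 16 or 20 of pregnancy (PD12, n = 5; PD16, n = 5; PD20, n = 6) or of the estrous cycle (CD12, n = 4; CD16, n = 5; CD20, n = 5), so that each animal gave 1 time point only. Conceptuses were flushed out up to day 16, whereas on day 20 of pregnancy the trophoblast and embryos were removed by dissection and the endometrium came from implantation sites. The tissue was the whole endometrium, and in bulk tissue fewer cells of a type and less RNA per cell cannot be told apart. The libraries held between 2029729 and 6402731 reads, and 3 reads in a library were worth between 0.769 and 1.77 normalized reads (CPM, counts scaled to a common total of annotated reads after TMM, a correction for the make-up of each library).

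miRNAs guide silencing proteins to messenger RNAs mainly through the seed, the bases next to the 5′ end. The miR-34 and miR-449 families share a seed and therefore many predicted targets, among them cyclins, cyclin-dependent kinases and E2F factors that drive cell division. The miR-34 genes are direct targets of the tumor suppressor p53, and miR-34b/c and miR-449 are known for their high levels in multiciliated epithelium, where they act together in the making of cilia.

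The sequences that carried most reads of each name are shown first, because their seeds decide how they are grouped. Letters in capitals are the seed, bases 2 to 8 from the 5′ end. Mature miR-34c, miR-34a and miR-449a have the seed GGCAGTG in common.
miR-34c: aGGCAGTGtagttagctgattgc
miR-34a: tGGCAGTGtcttagctggttgt
miR-449a: tGGCAGTGtattgttagctggt
The 5 other sequences with this seed were miR-34c that ended 1, 2, 3 or 4 bases early (written 3′ −1 to 3′ −4) and miR-449a that ended 1 base early. Together the 8 sequences held 474440 reads, 98.0% of the 484169 reads of the family. The remaining 5′ arm sequences of miR-34c started upstream of the mature form, which moves the seed. There were 3 that started 1 base upstream (5′ +1), with the seed AGGCAGT and together 1.45% of the reads of the family. The most abundant of them also ended 2 bases early.
miR-34c 5′ +1 3′ −2: tAGGCAGTgtagttagctgatt
A single sequence started 2 bases upstream and was read 366 times. The opposite arm of the hairpin, miR-34c-3p, was present in 2 forms that differ by 1 base at the 5′ end and so carry unlike seeds.
miR-34c-3p: aTCACTAAccacacggccagg
miR-34c-3p 5′ +1: aATCACTAaccacacggccagg
None of the other 859 annotated sequences had the seed GGCAGTG or AGGCAGT.

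Mature miR-34c carried 76.4% of the reads of the family, and the 9 sequences of its 5′ arm carried 99.3%. The family as a whole made up 0.628% of all annotated reads, between 0.157% and 2.16% in a single library. All 14 sequences were found in nearly every library, 12 of them in 30 and 2 in 29. Mature miR-34c ranked 26 among the annotated sequences with 5086 ± 3083 normalized reads (SD, n = 30). The forms 1 and 2 bases shorter at the 3′ end followed at rank 72 with 854 and rank 108 with 477 normalized reads. Mature miR-34a and miR-449a were rare, with 7.01 ± 3.24 and 5.09 ± 4.98 normalized reads at ranks 642 and 736. miR-34a was counted between 1 and 45 times in a library and miR-449a between 1 and 66 times, so counting error alone is large for them. The order of levels between names was not tested. The spread between animals of a group, as the SD of log2 normalized reads, was 0.73 for miR-34c, 0.61 for miR-34a and 0.98 for miR-449a, against a median of 0.76 over all annotated sequences.

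On the marker lists of smooth, skeletal and heart muscle, the library farthest from its group was animal 1 of PD20. In animal 1 of PD20 the sequences of miR-143, miR-145 and 3 other names of smooth muscle and stroma summed to 399276 normalized reads, whereas the median of PD20 was 70170, and sequences of skeletal and heart muscle summed to 40186 against a PD20 median of 3853. Its TMM factor was 0.644. Of the cyclic animals, animal 2 of CD12 had 155064 normalized reads of the smooth muscle and stroma list, against 59835 to 89309 in the rest of CD12 (TMM factor 0.744), and animal 5 of CD16 had 16765 of the skeletal and heart muscle list, against 2035 to 3392 in the rest of CD16. These 3 animals also had the lowest miR-34c of their groups, with 1885, 1832 and 2171.6 normalized reads. Other animals stood high on the skeletal and heart muscle list without low miR-34c. Animal 4 of CD20 had 8771, against 1111 to 2144 in the rest of CD20, with 10468 of miR-34c. Animal 3 of PD12 had 8241, against 1175 to 2478, with 7323 of miR-34c. Animal 3 of CD12 had 4595, against 1628 to 1791, with 15982 of miR-34c. On the smooth muscle and stroma list, animal 2 of CD16 was the highest of CD16 with 95363, and its miR-34c of 4753 was also the highest of CD16. The part of muscle and stroma in the miR-34c values was not tested. The log2FC of the mature forms in PD20 vs CD20 and PD20 vs PD16, their interactions of day 20 vs day 16, the 2 shares of read ends and the list counts on day 20 are given with and without animal 1 of PD20.

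Mature miR-34c, the main form of the family, had its highest group mean in CD20. CD20 animals had 7131, 4085, 5356, 10468 and 10563 normalized reads, a mean of 7521 ± 2941 (SD, n = 5). PD20 animals ranged from 1885 through a median of 3348 to 5607, with a mean of 3478 ± 1207 (n = 6). The groups overlapped, since animal 4 of PD20 stood above 2 of the 5 cyclic animals, while the other 5 pregnant animals stood below all of them. PD16 was the tightest group, with 4033, 4213, 4790, 4254 and 6566 normalized reads. PD12 had 1763, 6338, 7323, 8243 and 3150, and CD16 had 4716, 4753, 2517, 2765 and 2171.6. CD12 was the widest group with 5141, 1832, 15982 and 3550 normalized reads, and it held the highest value of all 30 animals. By their means the groups ran from CD20 through CD12, PD12, PD16 and PD20 to CD16, and each group overlapped its neighbors in this order.

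Mature miR-34a, the family member best known as a p53 target, had its lowest group mean in PD20. PD20 animals ranged from 0.592 through a median of 4.42 to 6.399 normalized reads, with a mean of 3.84 ± 2.49 (SD, n = 6), which in raw reads is 1 to 18 per library. PD12 animals had 7.82, 7.22, 6.93, 10.5 and 8.02, all above all PD20 animals. CD20 animals had 16.7, 6.70, 5.59, 7.24 and 9.999 normalized reads, a mean of 9.24 ± 4.46 (n = 5), and 3 PD20 animals stood above the lowest of them. CD12 animals had 9.31, 11.5, 12.4 and 7.83, and CD16 animals had 5.92, 5.92, 5.19, 6.03 and 3.59, so that these groups did not overlap either. PD16 lay between with 6.57 ± 2.19 (n = 5). miR-34a in PD20 vs PD12 and in CD16 vs CD12 were the only cases without overlap among the 14 sequences and 9 comparisons, where 3.32% and 5.5% of all annotated sequences had groups without overlap. Neither was called (adjusted p = 0.321 and 0.330, days 16 and 20 jointly against day 12, edgeR quasi-likelihood F-test).

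Mature miR-449a, whose gene cluster lies within the ciliogenesis gene CDC20B in mammals, also had its lowest group mean in PD20. PD20 animals ranged from 0.349 through a median of 1.304 to 3.69 normalized reads, with a mean of 1.66 ± 1.15 (SD, n = 6), or 1 to 11 raw reads. CD20 animals had 24.995, 5.29, 6.52, 4.46 and 3.33, a mean of 8.92 ± 9.06 (n = 5), or 7 to 66 raw reads. Animal 4 of PD20 alone reached the lowest CD20 animal, and animal 1 of CD20 stood far above the rest. PD16 animals had 9.48, 8.84, 6.19, 0.745 and 6.19, and CD16 animals had 5.92, 3.33, 1.42, 3.71 and 1.20. PD12 animals had 5.94, 4.47, 1.85, 8.81 and 3.21, CD12 animals had 4.38, 3.33, 15.8 and 3.30, and both groups overlapped each of the others.

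**Figure D1:**
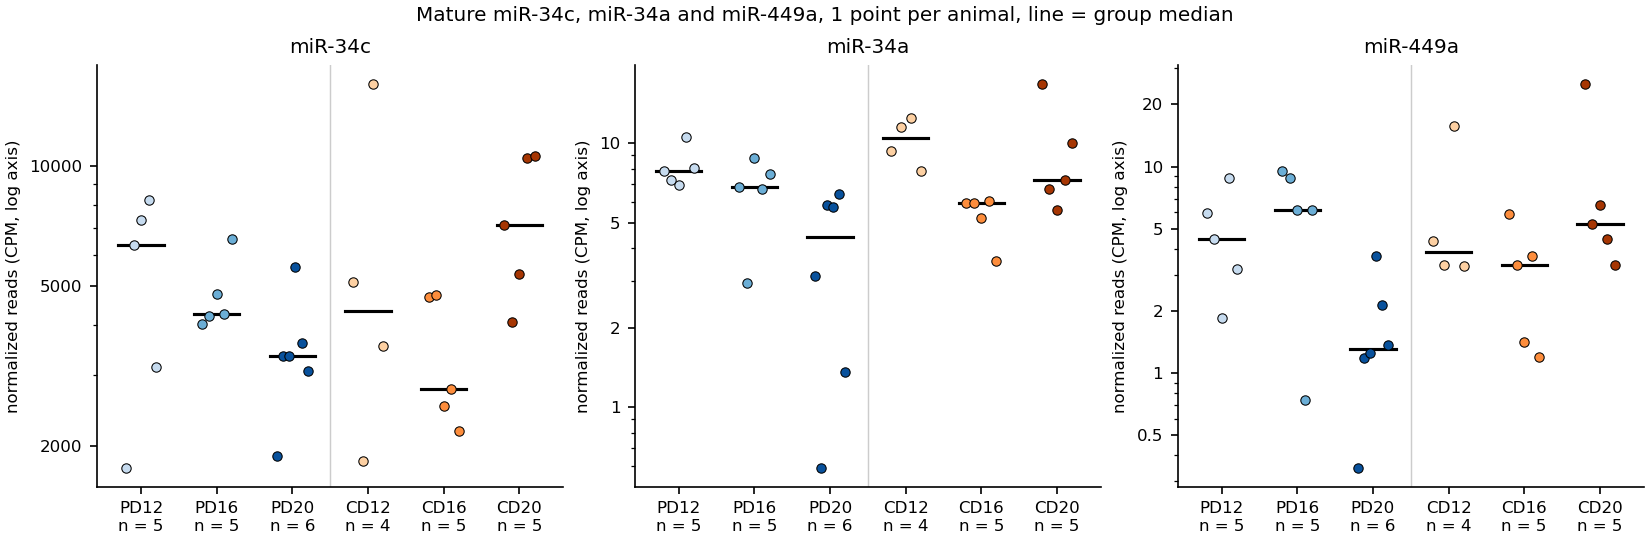
Normalized reads (CPM, log axis) of mature miR-34c, miR-34a and miR-449a in the 6 groups, with 1 point per animal and a line at the group median. PD20 holds the lowest animals of miR-34a and miR-449a, and for miR-34c 5 of 6 PD20 animals lie below all CD20 animals.

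The study asked which miRNAs of the endometrium change as conceptuses attach, and compared days within pregnancy, days within the cycle, and pregnancy with the cycle on each day. The whole table was fitted at once in edgeR (quasi-likelihood F-test). A call required a p under 0.05 after Benjamini-Hochberg adjustment over the table, together with a log2 fold change (log2FC) above 1 or below -1. None of the 14 sequences was called in any of the 9 comparisons. In PD20 vs CD20, the comparison with the smallest p-values, 0 of 14 were called where 1.49% of all annotated sequences were, and 3 of 14 had an unadjusted p under 0.05 where 28.5% of all had. These 3 were miR-449a with a log2FC of -2.38 ± 0.61 (SE, adjusted p = 0.0519, edgeR F-test), miR-34c with -1.10 ± 0.36 (adjusted p = 0.0665) and miR-34a with -1.22 ± 0.51 (adjusted p = 0.131). Other tests of the same counts passed the threshold for some of them. The likelihood ratio test of edgeR called miR-449a and miR-34c (14.2% of all annotated sequences called), DESeq2 called the same pair (15.01% called), and 1 fit of all 30 libraries called miR-449a and miR-34a (11.2% called). Without animal 1 of PD20 the log2FC were -2.16, -0.97 and -1.13 for miR-449a, miR-34c and miR-34a (adjusted p = 0.0772, 0.120 and 0.221, F-test), and without animal 1 of CD20 that of miR-449a was -1.49 (adjusted p = 0.165).

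The other 11 sequences had log2FC in PD20 vs CD20 between -0.82, for miR-449a 3′ −1, and 0.32, for miR-34c 5′ +1 3′ −3, with an adjusted p of 0.354 or more. Over the 14 sequences the median was -0.23, against -0.03 over all annotated sequences. It was -0.09 without animal 1 of PD20 (6 positive and 8 negative values) and between -0.43 and -0.05 over the fits that left out any 1 library of these groups. miR-34c 3′ −1 and 3′ −2, the next most abundant, had -0.19 ± 0.43 and 0.01 ± 0.42. The 5′ shifted form miR-34c 5′ +1 3′ −2 had 0.14 ± 0.42, with 69.9 ± 35.8 normalized reads in PD20 (n = 6) and 64.7 ± 33.1 in CD20 (n = 5). miR-34c-3p had -0.27 ± 0.50, with 15.1 ± 9.83 and 18.5 ± 8.85. When all sequences of a miRNA arm were summed before the fit, the 5′ arm of miR-34c had a log2FC of -0.67 ± 0.37 (adjusted p = 0.247, edgeR F-test), miR-449a -1.37 ± 0.56 (adjusted p = 0.115) and the 3′ arm of miR-34c 0.01 ± 0.46.

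**Figure D2:**
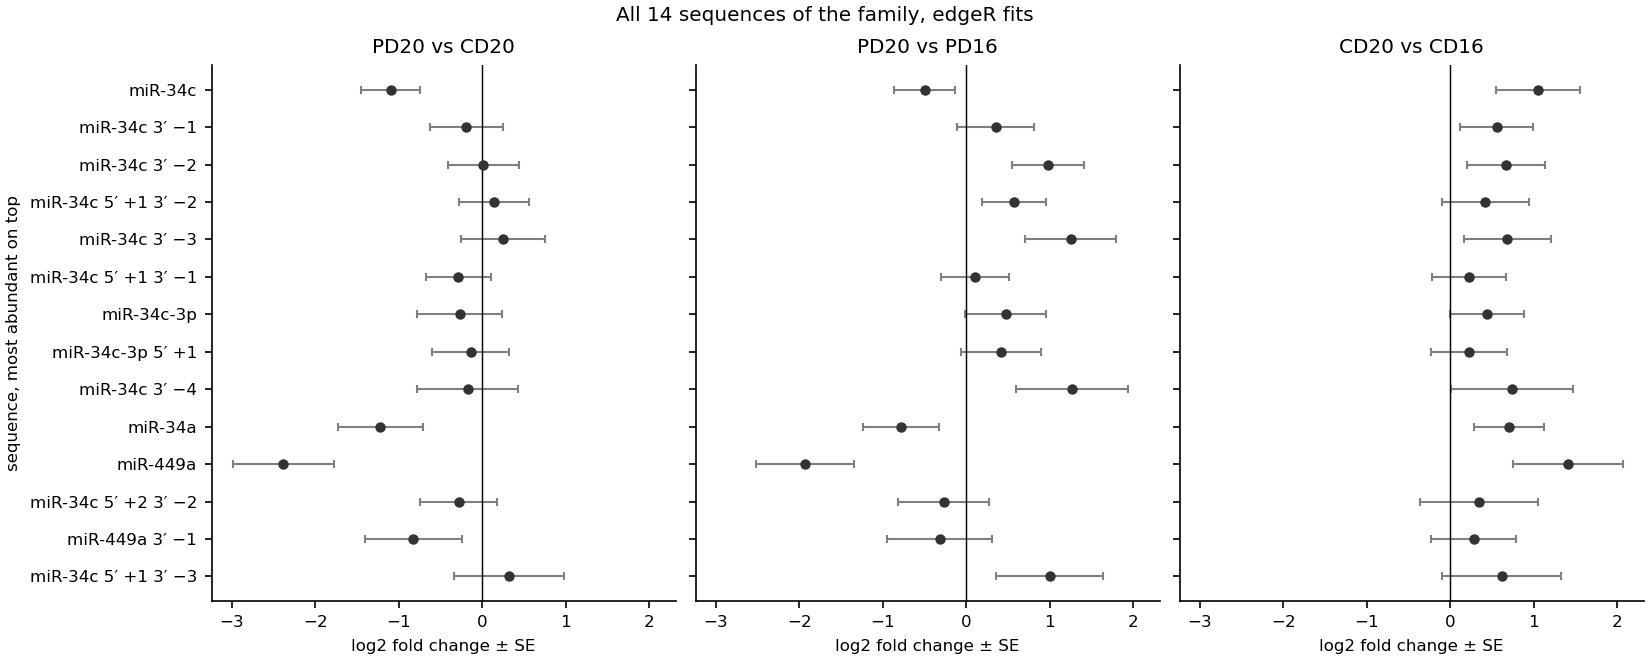
Log2 fold change with its standard error (horizontal axis) of the 14 sequences, most abundant on top, in PD20 vs CD20, PD20 vs PD16 and CD20 vs CD16. In CD20 vs CD16 all 14 points lie right of 0, and in PD20 vs CD20 the mature miR-449a, miR-34a and miR-34c lie farthest left of it.

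Within pregnancy, the smallest p-values belonged to miR-449a. In PD20 vs PD16 its log2FC was -1.93 ± 0.59 (SE, adjusted p = 0.153, edgeR F-test), and the likelihood ratio test called it (adjusted p = 0.0458). Without animal 1 of PD20 it was -1.68 (adjusted p = 0.229, F-test). With all sequences of an arm summed before the fit, miR-449a had -0.84 ± 0.56 (adjusted p = 0.493) and the 5′ arm of miR-34c 0.03 ± 0.37 (adjusted p = 0.967). By the F-test 0 of 14 sequences were called and 3 had an unadjusted p under 0.05, where 0.573% and 14.2% of all annotated sequences were and had. The likelihood ratio test called 1 of 14 and 2.41% of all, and DESeq2 0 of 14 and 1.72%. miR-34c and miR-34a had -0.50 ± 0.37 and -0.78 ± 0.46 (-0.36 and -0.73 without animal 1 of PD20), while 9 of 14 sequences had positive values, up to 1.27 ± 0.67 for miR-34c 3′ −4. The shortened miR-34c 3′ −2 and 3′ −3 had 0.98 ± 0.43 and 1.25 ± 0.54 (adjusted p = 0.300 and 0.285), so that the values of mature and shortened miR-34c had unlike signs. In PD16 vs PD12 and PD20 vs PD12, 0 of 14 were called by the F-test, where 0.229% and 0.802% of all annotated sequences were. In the joint test of both days 1 of 14 had an unadjusted p under 0.05, where 18.7% of all had. The likelihood ratio test called 0 of 14 (2.75% and 5.27% of all) and DESeq2 0 of 14 (2.86% and 5.27%). miR-449a again had the smallest p, with log2FC of 0.42 ± 0.57 in PD16 vs PD12 and -1.51 ± 0.59 in PD20 vs PD12 (joint adjusted p = 0.148), the latter -1.28 without animal 1 of PD20 (joint adjusted p = 0.227).

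Within the cycle the 14 sequences shared a sign in each step between neighboring days. In CD16 vs CD12 all 14 log2FC were negative, with a median of -0.88 against 0.03 over all annotated sequences, of which 49.1% were negative. In CD20 vs CD16 all 14 were positive, with a median of 0.59 against -0.03, and 48.8% of all were positive. The comparisons share the CD16 animals, and 11 of the 14 sequences come from the miR-34c hairpins, so these signs are not independent of each other. The shared sign depended on single animals, since 1 of the 14 turned in CD16 vs CD12 without animal 1 or without animal 3 of CD12 (median -0.42 without animal 3), and 1 in CD20 vs CD16 without animal 1 of CD20 (median 0.54). By the F-test 0 of 14 were called in CD16 vs CD12, CD20 vs CD12 and CD20 vs CD16, where 0.115%, 0.458% and 0.458% of all were. An unadjusted p under 0.05 was found for 0 of 14 in the joint test against CD12 (23.9% of all) and for 2 of 14 in CD20 vs CD16 (21.2% of all). In the same 3 comparisons the likelihood ratio test called 0 of 14 (5.27%, 5.73% and 6.41% of all), as did DESeq2 (5.84%, 6.41% and 8.25%). The largest value in CD20 vs CD16 was that of miR-449a, 1.41 ± 0.65 (adjusted p = 0.215, edgeR F-test), followed by miR-34c with 1.05 ± 0.50 (adjusted p = 0.231). Without animal 1 of CD20 the log2FC of miR-449a was 0.54. In CD16 vs CD12 the smallest p was that of miR-34c, -0.90 ± 0.52 (joint adjusted p = 0.306), and without animal 3 of CD12 its log2FC was -0.02. It was -1.22 without animal 2 of CD12 and -0.85 without animal 5 of CD16, and without the latter miR-34c had 0.98 in CD20 vs CD16.

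Before day 20, pregnancy against the cycle gave 0 calls among the 14 sequences by the F-test, and 0% of all annotated sequences, in PD12 vs CD12 as in PD16 vs CD16. Of the other tools, the likelihood ratio test called 0 of 14 (0.115% and 0.573% of all), as did DESeq2 (0% and 0.802%). The smallest p on day 12 was that of miR-34c 5′ +1 3′ −2 (log2FC -0.56 ± 0.45, adjusted p = 0.777, edgeR F-test) and on day 16 that of miR-449a (0.92 ± 0.60, adjusted p = 0.620). On either day 0 of 14 sequences had an unadjusted p under 0.05, where 6.07% and 10.9% of all had.

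Whether the difference between pregnancy and cycle departed between days was tested with an interaction in 1 fit of all 30 libraries. miR-449a was called for day 20 vs day 16, with an interaction of -3.34 ± 0.89 on the log2 scale (SE, adjusted p = 0.0440, edgeR F-test). It was the only 1 of the 14 sequences, where 2.41% of all annotated sequences were called, and the likelihood ratio test (5.38% of all) and DESeq2 (5.96% of all) also called miR-449a only. An unadjusted p under 0.05 was found for 3 of 14, where 19.1% of all had. On day 16 the pregnant animals had the higher mean, 6.29 ± 3.45 against 3.11 ± 1.93 normalized reads (n = 5 each). On day 20 they had the lower mean, 1.66 ± 1.15 (n = 6) against 8.92 ± 9.06 (n = 5). The call rests on few reads and on single animals. Without animal 1 of CD20 the interaction was -2.44 (adjusted p = 0.157), without animal 1 of PD20 -3.08 (adjusted p = 0.0781), and 10 of the 30 fits that each left out 1 library kept the call. It was not called with summed isomiRs (-1.49, adjusted p = 0.270), with all deposited sequences tested (-3.43, adjusted p = 0.504), with the replicate number as a block (-3.09, adjusted p = 0.120) or with the title number in bands (-3.26, adjusted p = 0.0661). miR-34c and miR-34a had interactions of -1.61 ± 0.62 and -1.54 ± 0.59 (adjusted p = 0.157 and 0.156), and of -1.40 and -1.42 without animal 1 of PD20 (adjusted p = 0.247 and 0.229). For the other 11 sequences the values lay between -0.67 and 0.56. In the interactions of day 16 vs day 12 and day 20 vs day 12 0 of 14 were called by the F-test, where 0% and 0.115% of all were. Of the 14, 0 and 1 had an unadjusted p under 0.05 (8.13% and 16.4% of all). The likelihood ratio test called 0 of 14 in both (0% and 1.83% of all), as did DESeq2 (0% and 2.75%).

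Because the mature and the shortened forms of miR-34c had unlike log2FC, the ends of its reads were compared within libraries, where scaling between libraries does not enter. These shares come from the same counts as the log2FC, so their p-values are not independent of them. A library held between 6483 and 41329 annotated reads of the 5′ arm. Sequences with a shifted 5′ end, and thus another seed, made up 1.96% ± 0.633 of them in PD20 (SD, n = 6) and 1.06% ± 0.200 in CD20 (n = 5). PD20 animals ranged from 1.41% through a median of 1.83% to 3.04%, and CD20 animals had 0.853%, 1.27%, 0.896%, 1.27% and 1.02%. All PD20 animals lay above all CD20 animals, and the difference of 0.898 percentage points had p = 0.00866 in an exact permutation test (two-sided) and an adjusted p of 0.0779 over 18 tests. CD12 animals, with 2.34% ± 0.960 (n = 4), likewise lay above all CD20 animals (exact permutation p = 0.00794, the smallest this design allows; adjusted p = 0.0779). PD12, PD16 and CD16 had 1.62% ± 0.481, 1.24% ± 0.171 and 1.46% ± 0.676 (n = 5 each). None of the 18 tests passed after adjustment.

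Forms that ended early, of all that start at the mature 5′ end, made up 27.8% ± 9.83 of reads in PD20 (SD, n = 6) and 18.6% ± 3.93 in CD20 (n = 5). PD20 had 3 animals between 19.01% and 20.4% and 3 between 31.3% and 43.7%, and CD20 animals lay between 12.3% and 22.2%. The difference of 9.17 percentage points did not pass the test (exact permutation p = 0.0952, adjusted p = 0.286). PD16 was the lowest group with 16.8% ± 4.84 (n = 5), and PD20 vs PD16 differed by 10.9 points (exact permutation p = 0.0476, adjusted p = 0.214). Animal 1 of PD20 had 2.15% of shifted 5′ ends and 19.8% of shortened 3′ ends, both within the range of the other PD20 animals. Without it PD20 and CD20 differed by 0.860 points in shifted 5′ ends (exact permutation p = 0.00794, adjusted p = 0.0714) and by 10.8 points in shortened 3′ ends (exact permutation p = 0.0794, adjusted p = 0.238).

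**Figure D3:**
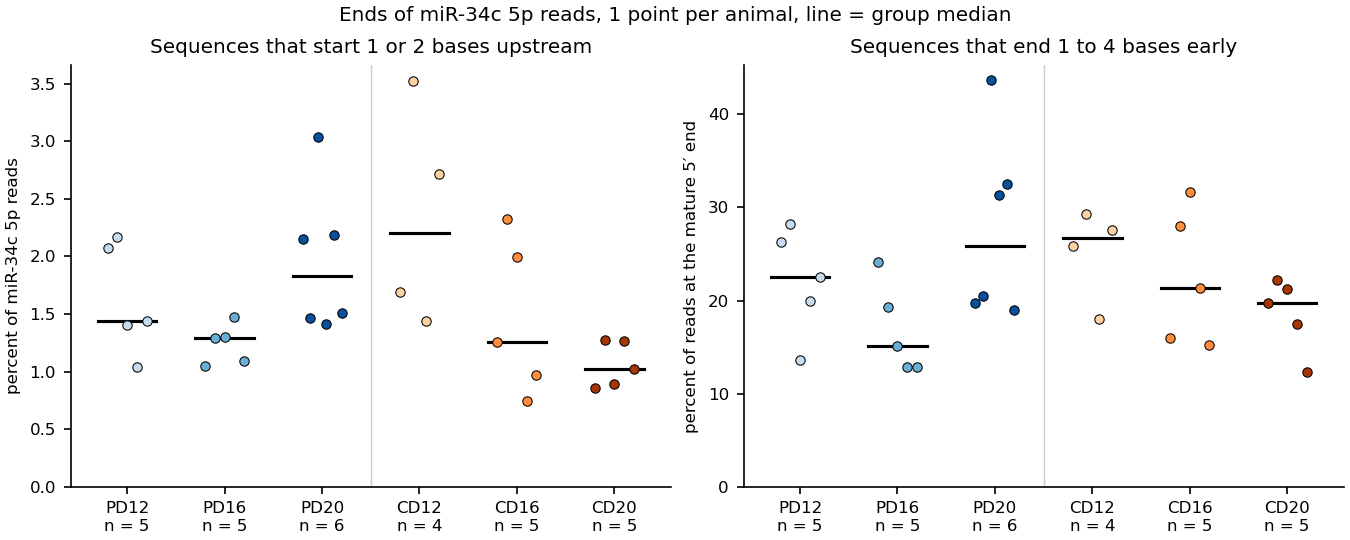
Percent of miR-34c 5′ arm reads that start 1 or 2 bases upstream (left) and percent of reads at the mature 5′ end that end 1 to 4 bases early (right), 1 point per animal with a line at the group median. On the left all 6 PD20 animals, from 1.41%, lie above all 5 CD20 animals, up to 1.27%.

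The 3′ arm of miR-34c stayed rare next to the 5′ arm. Its group means ran from 0.366 (PD16) to 0.585 (PD20) reads per 100 reads of both arms. Of the 3′ arm reads, the form with 1 more base at the 5′ end took between 37.7% ± 5.90 in CD12 (SD, n = 4) and 49.4% ± 9.05 in PD20 (n = 6).

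Members were counted by exact match to the annotated table, so the deposited sequences were also searched for bases 2 to 17 of each mature form. For miR-34c 428 sequences with 584992 reads were found, of which 419 were outside the table and held 17.9% of the reads, between 11.5% and 26.8% in a library. The 3 most abundant of them differed from the mature form in 1 of the last 2 bases. Substitutions are written with the base of mature miR-34c, the position from 1 at the 5′ end, and the base in the sequence.
miR-34c C23A: aGGCAGTGtagttagctgattga
miR-34c C23T: aGGCAGTGtagttagctgattgt
miR-34c G22A: aGGCAGTGtagttagctgattac
The C23A form, with the unchanged seed in capitals, had 61977 reads and was present in all 30 libraries, which would place it 74 by reads in the annotated table. The C23T and G22A forms had 13699 and 4837 reads. Whether these bases were added after transcription or read wrongly was not tested. Of all reads with these bases of miR-34c, the C23A form took 14.1% ± 3.65 in PD20 (SD, n = 6; 10.97% to 19.96%) and 9.86% ± 1.07 in CD20 (n = 5; 8.68% to 11.3%), and the ranges overlapped. In PD12, PD16, CD12 and CD16 it took 10.1% ± 1.83, 7.77% ± 1.39, 9.76% ± 1.66 and 10.8% ± 2.51. The mature form took 55.4% ± 10.1 in PD20 and 66.9% ± 4.61 in CD20. All reads with these bases came to 6589 ± 2815 normalized reads in PD20 and 11061 ± 3705 in CD20.

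**Figure D4:**
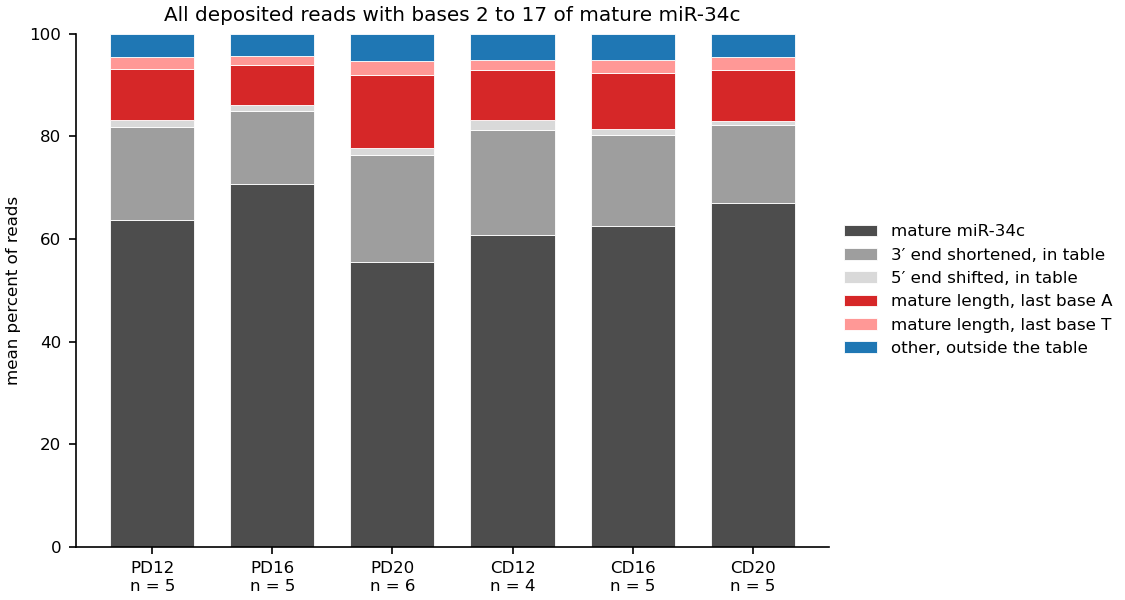
Mean percent of all deposited reads that hold bases 2 to 17 of mature miR-34c, split by end, in the 6 groups (stacked bars that sum to 100). The C23A form (red) is largest in PD20 with 14.1% and the mature form (dark gray) smallest there with 55.4%.

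For the rare members, reads outside the table were the larger part. Reads with bases 2 to 17 of miR-449a numbered 2368 in 118 sequences, and 68.8% of them were outside the table. miR-449b is known to have the same bases there, so these reads cannot be given to miR-449a alone, and miR-34b, miR-449b and miR-449c were not looked for by sequence. The base before these 16 was a T, as in mature miR-449a, in 91.4% of the reads and an A in 8.45%. The form that differed from mature miR-449a by T22A had 519 reads, more than the 383 of the mature form itself.
miR-449a T22A: tGGCAGTGtattgttagctgga
It had 4.48 ± 2.80 normalized reads in PD20 (SD, n = 6) and 6.61 ± 2.16 in CD20 (n = 5), and the ranges overlapped. All reads with these bases of miR-449a came to 18.3 ± 13.1 in PD20 and 38.5 ± 18.1 in CD20, with CD20 animals at 69.7, 27.8, 36.3, 34.5 and 24.3. In PD20, 5 of 6 animals were below all of these and animal 4, with 44.0, was not. For miR-34a 71 sequences held 1378 reads, 60.7% of them outside the table, and the sum was 11.2 ± 3.71 in PD20 and 23.5 ± 12.0 in CD20. The most abundant outside the table, with 261 reads, was the mature form with a T added.
miR-34a with T added: tGGCAGTGtcttagctggttgtt

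The seeds of the 3′ arm led to another set of reads. In the annotated table, 6 sequences carried the identifier ENSSSCG00000027451 and no miRNA name in the tables used here. miR-34b was not looked for by sequence, and whether these 6 sequences are products of miR-34b was not tested. The most abundant of the 6 had 14017 reads, more than both forms of miR-34c-3p together, and the seed of miR-34c-3p 5′ +1.
ENSSSCG00000027451, most abundant: aATCACTAattccactgccatc
ENSSSCG00000027451, 1 base shorter: aTCACTAAttccactgccatc
In 16 of 22 positions its bases equal those of miR-34c-3p 5′ +1. It had 149 ± 58.6 normalized reads in PD20 (SD, n = 6) and 202 ± 55.1 in CD20 (n = 5), and 0 of the 6 sequences were called in any comparison, where 0% to 2.41% of all annotated sequences were. The shorter sequence was the most alike to mature miR-34c over the 30 libraries (Pearson r = 0.81 of log2 normalized reads, and 0.84 around the group means). Correlations are given as description, since all sequences of a library share its depth and its scaling, and the likeness says nothing on control or function. After it, among sequences that were not members by name, came miR-16 (r = 0.54, and 0.32 around the group means) and miR-28 (r = 0.51 and 0.42). Most alike to miR-34a were miR-491 (r = 0.71), miR-106b (0.62) and miR-128 (0.61), and to miR-449a miR-20a (0.69), miR-16 (0.68) and miR-411 (0.67). Between the mature forms of the family r was 0.54 for miR-34c and miR-449a, 0.57 for miR-34a and miR-449a and 0.42 for miR-34a and miR-34c. Around the group means these values were lower, with 0.39, 0.30 and 0.24 in the same order.

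**Figure D5:**
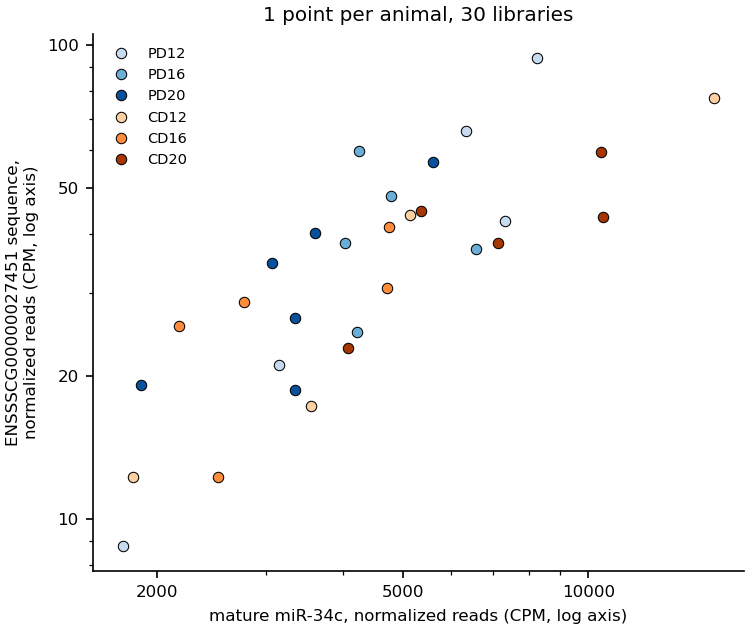
Normalized reads (CPM, log axes) of mature miR-34c (horizontal) and of the 21-base sequence of ENSSSCG00000027451 (vertical) in the 30 libraries, 1 point per animal, colored by group. Points rise together within the groups as well as over all of them (r = 0.84 and 0.81).

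Other miRNAs linked to p53 were taken from a list of 8 names. Of these, 6 were found with 40 sequences (miR-194 and miR-15a were not), led by miR-143-3p, which p53 is known to raise at the processing step. In PD20 vs CD20 0 of the 40 were called, where 1.49% of all annotated sequences were. Their median log2FC was 0.74, against -0.03 over all annotated sequences, with 29 positive and 11 negative values. This value came with animal 1 of PD20, in which miR-143 was very high. Without that animal the median was -0.03, against -0.04 over all, with 18 positive and 22 negative values. In the interaction of day 20 vs day 16, 3 sequences of miR-143 were called higher and 2 of miR-16 lower, where 2.41% of all were called. Without animal 1 of PD20, 0 were called higher and 1 of miR-16 lower, where 0.229% of all were called.

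Marker lists of cell types were set beside the values on day 20. The epithelial list (miR-200 family, miR-205, miR-375 and others, 11 of 11 names found, 71 sequences) summed to 20403 ± 5075 normalized reads in PD20 (SD, n = 6; 14462 to 28207) and 13059 ± 2448 in CD20 (n = 5; 10285 to 15448), led by miR-200c. In PD20 vs CD20 3 of the 71 sequences were called lower, all of them miR-205, a miRNA of stratified and basal epithelium, and 0 higher, where 1.49% of all annotated sequences were called, and the median log2FC of the list was 0.57. Without animal 1 of PD20 the same 3 were called lower and 1 of miR-203 higher (1.03% of all), and the median was 0.60. The sums of the 2 groups overlapped. By name, the PD20 mean was below the CD20 mean for miR-141 (139 against 370 normalized reads), miR-429 (18.3 against 53.6) and miR-200a (237 against 332). The same held for miR-96 (60.4 against 123) and miR-205 (5.95 against 54.8). The PD20 mean was above the CD20 mean for miR-200b, miR-200c, miR-203, miR-375, miR-183 and miR-182. The endothelial miR-126, with 17 sequences, had 3913 ± 606 in PD20 and 4604 ± 293 in CD20. In PD20 vs CD20 0 of the 17 were called, with a median log2FC of -0.38, and without animal 1 of PD20 1 was called lower (1.03% of all called), with a median of -0.30 and 12 of 17 values negative. The erythrocyte list (3 of 3 names, 16 sequences, led by miR-451) had 2190 ± 1177 and 1076 ± 618, and the leukocyte list (3 of 4 names, 9 sequences, led by miR-142; miR-223 was not found by name) had 110 ± 32.8 and 122 ± 51.7. The smooth muscle and stroma list (5 of 5 names, 52 sequences, led by miR-143) had 118790 ± 137897 and 61187 ± 11224, and the skeletal and heart muscle list (3 of 5 names, 8 sequences, led by miR-1) 9980 ± 14977 and 3082 ± 3211, both with animal 1 of PD20 as the highest. Without that animal PD20 had 62693 ± 12954 (n = 5; 48830 to 75139) for smooth muscle and stroma and 3939 ± 2585 (n = 5) for skeletal and heart muscle, and the ranges overlapped those of CD20. Of 5 trophoblast and embryonic names 0 were found by name. The sequence of miR-302, a miRNA of pluripotent and embryonic cells, was given with the study's assays and, looked for after its values were seen, was in the annotated table under an Ensembl identifier (seed in capitals).
miR-302: tAAACGTGgatgtacttgcttt
PD20 animals had 2.44, 2.37, 4.57, 39.3, 17.1 and 41.2 normalized reads, or 4 to 121 raw reads. CD20 had 3 reads in all, in animals 1 and 5, and the other 4 groups had 0. The sequence was called higher in PD20 vs CD20 (adjusted p = 0.00775, edgeR F-test), and all PD20 animals lay above all others. Animal 4 of PD20, the highest of its group for miR-34c and miR-449a, was 1 of the 2 animals with the most reads of it. The other, animal 6, had 3077 normalized reads of miR-34c and 1.36 of miR-449a, within the range of the remaining PD20 animals. The part of embryonic or trophoblast cells in the results was not tested. The part of cell make-up in the values of the family was not tested, and protein-coding markers of ciliated cells are not measured in small RNA libraries.

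In the RefSeq annotation of a newer assembly (Sscrofa11.1, used for names and neighbors only) the miR-34c gene MIR34C-1 lies within the spans of BTG4 and C9H11orf88, next to LAYN and SIK2.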

How the data were processed

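Per the labels, total RNA of each endometrium was made into 1 small RNA library, and the authors joined 2 sequencing runs. The authors deposited raw counts of each distinct read sequence, made from trimmed and quality-filtered reads, not aligned or normalized. There were no molecular identifiers, so counts cover counting error only. The annotated sequences and their names were taken from the study's annotation (Sscrofa10.2), and counts were joined by exact match. The authors' own fold changes and p-values were not used. Of its sequences, 14 were members by name. The members and lists were chosen with earlier results of these data known.

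Counts were scaled by TMM and fitted in edgeR 4.0.16 (R 4.3.3). Within a status days 16 and 20 were tested jointly against day 12. PD20 vs PD16, CD20 vs CD16 and pregnancy against cycle were single contrasts, and interactions used all 30 libraries. Groups came from the labels. Fits and shares were tested on simulated data. Given in full were the 3 mature forms, the leading 5′ shifted and 3p sequences, any called member and the member with the smallest p of each comparison. Likeness took the 3 other miRNA names with the highest r and a mean of at least 5 CPM. The 2 shares were compared by exact permutation (scipy 1.17.1). Alternatives were the likelihood ratio test, DESeq2 1.42.0, RLE, all deposited reads as library size, a minimum of 10 CPM, all deposited sequences, 1 fit of all libraries, summed isomiRs, a replicate block, the title number in 3 bands, single contrasts, other share definitions and each library left out. Bases 2 to 17 defined the search outside the table, whose genome origin was not checked here. The lists without animal 1 of PD20 and the miR-302 sequence were added after seeing the data.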

Additional observations from a re-analysis of the deposited data

Results flagged for a closer look

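In 2 of 42 groups tested, 1 animal stood away from the others, and chance alone gives about 1 in 20. Both were miR-449a. Animal 3 of CD12 had 15.8 normalized reads of miR-449a against 4.38 in the nearest animal, and animal 1 of CD20 had 24.995 against 6.52. The CD12 animal was also the highest of its group for miR-34c, with 15982 normalized reads.

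The difference between pregnancy and cycle in miR-449a departed between days 16 and 20, with an interaction of -3.34 on the log2 scale (adjusted p = 0.0440, edgeR F-test). It was -2.44 without animal 1 of CD20 (adjusted p = 0.157) and -3.08 without animal 1 of PD20 (adjusted p = 0.0781), and 10 of the 30 fits that left out 1 library kept the call. It was -1.49 with summed isomiRs (adjusted p = 0.270) and -3.09 with the replicate block (adjusted p = 0.120).

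Reads outside the annotated table held 17.9% of all reads with bases 2 to 17 of miR-34c, 60.7% of those of miR-34a and 68.8% of those of miR-449a, whose bases miR-449b is known to share.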

How the results depend on the processing

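The count of called family members stayed at 0 in 7 of 9 comparisons under all alternatives that were run. In PD20 vs PD16 the likelihood ratio test called 1. In PD20 vs CD20 the likelihood ratio test, DESeq2 and 1 fit of all libraries each called 2, and leaving out 1 library gave 0 to 2 calls (2 without animal 4 of PD20, miR-449a and miR-34c; 1, miR-449a, without animal 4 or animal 5 of CD20). The interaction of day 20 vs day 16, with 1 call, had 0 with the minimum of 10 CPM (miR-449a not tested), with all deposited sequences, with summed isomiRs, with the replicate block and with the title number bands, and 0 to 1 when 1 library was left out (adjusted p of miR-449a from 0.0282 to 0.157). For both shares 0 comparisons passed under every alternative that was run.

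Animals with the same replicate number were not alike (median correlation between -0.141 and 0.0696), so the numbers do not pair animals, and the block gave an interaction of -3.09 for miR-449a (adjusted p = 0.120). With the block the log2FC of miR-34c was 0.0573 in PD16 vs PD12 and 0.116 in PD12 vs CD12, in place of -0.15 and -0.28.

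Signs also turned in values that were not called. For miR-34c the title number bands gave 0.133 in PD12 vs CD12. For miR-34a all deposited reads as library size gave 0.225 in CD20 vs CD12, a scaling that moved the median of all annotated sequences there from 0.09 to 0.47 and in PD20 vs CD20 from -0.03 to -0.27. For miR-449a the bands gave -0.300 in CD20 vs CD12. Leaving out 1 library gave ranges of -0.393 to 0.0392 (miR-34c, PD16 vs PD12), -0.168 to 1.07 (miR-34c) and -0.489 to 1.28 (miR-449a) in CD20 vs CD12, -0.587 to 0.621 (miR-34c) and -0.746 to 0.431 (miR-449a) in PD12 vs CD12, and -0.162 to 1.07 (miR-34c, interaction of day 16 vs day 12). The causes were not tested. With 1 to 66 reads per library, depth limits what miR-34a and miR-449a can show.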
